A study of Homo sapiens with 8 samples.

Results

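Poly(A) sites were described in 8 genes that act as tumour suppressors or chromatin regulators in neuroblastoma: ATRX, ARID1A, ARID1B, CHD5, NF1, CADM1, KIF1B and CASZ1. They were taken by name from 19389 protein-coding genes, and a poly(A) peak was counted for a gene when it overlapped the gene's GENCODE span or the 4 kb after its 3′ end. The 8 genes held 304 of the 153624 peaks in the deposited list. Of these, 23 peaks with a long genomic A stretch and no poly(A) signal were removed, and 281 were retained. The retained peaks comprised 18 at annotated transcription end sites (TES), 38 in exons, 223 in introns and 2 downstream of a gene end.

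The libraries belong to a study of premature cleavage within genes when the transcriptional kinases CDK12 and CDK13 are blocked, and the pair of lines addresses which of the kinases accounts for it. Poly(A) 3′-sequencing was carried out in Kelly cells, a MYCN-amplified line derived from a human neuroblastoma, and in Kelly E9R cells, a derivative whose CDK12 carries a point mutation at the cysteine to which the covalent inhibitor THZ531 binds. Both lines were given DMSO, the solvent, or THZ531 for 6 h, at 400 nM according to the labels (the study's methods name a lower dose for these lines), which makes 4 groups of 2 libraries, all from 1 parental line in culture. The peaks were called once, on the reads of all 8 libraries together, so the list holds no value per library, the depth of each library is unknown and no measurement has a replicate. From this list, THZ531 could therefore not be compared with DMSO, nor Kelly with Kelly E9R, for any of the genes. A peak below means only that oligo(dT)-primed reads piled up there in the merged libraries, treated or not.

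The genes fall into several functional classes. ATRX helps to deposit a histone variant at repetitive DNA, ARID1A and ARID1B are alternative DNA-binding subunits of the SWI/SNF chromatin remodelling complex, and CHD5 is a neuronal remodelling ATPase. NF1 encodes neurofibromin, which switches RAS off, CADM1 is a cell adhesion molecule, KIF1B is a kinesin motor for axonal transport, and CASZ1 is a zinc finger transcription factor of neural crest differentiation. CHD5, KIF1B and CASZ1 lie in the part of the short arm of chromosome 1 that aggressive neuroblastomas often lose, and ATRX, ARID1A, ARID1B and NF1 are mutated or deleted in subsets of these tumours. A transcript that is cleaved and polyadenylated within an intron lacks the coding exons that follow, so the position of such sites decides how much of a protein could still be made.

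The defining markers of the labelled cells were present. The 9 adrenergic neuroblastoma markers reported here (among them HAND2, GATA3, DBH and MYCN) each had a TES peak, with pileups of 39 to 121 reads and a median of 56. Pileup is the number of extended reads stacked at the peak's summit, recovered from the deposited enrichment and p-value of each peak. Of 6 mesenchymal-type markers, 4 had a TES peak, with pileups up to 25, and YAP1 and NOTCH2 were listed with none. Of 8 markers of other cell types, COL1A1 alone had a TES peak, with a pileup of 16, while the blood, liver, epithelial and endothelial markers PTPRC, CD3E, HBB, ALB, KRT5, CDH1 and PECAM1 had none.

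All 8 genes had at least 1 TES peak, a state shared by 66.7% of the 18302 protein-coding genes with an intron and by 73.6% of those at least as long as CHD5, the shortest of the 8. The 18 TES peaks had pileups of 8 to 40 with a median of 23, against a median of 16 for TES peaks of genes of similar length. Fold enrichment, the ratio of the summit pileup plus 1 to the local background plus 1, ranged from 4.41 to 18.3 at these ends. The 3′ end of 12 of the 18 peaks lay within 11 bp of an annotated transcript end. A poly(A) signal, the hexamer that the cleavage machinery reads shortly before the cut, was found in the 100 bp before the end of 15 of the 18 peaks (83.3%, 95% Wilson interval 60.8% to 94.2%). It was the canonical AATAAA in 12 of them. Among TES peaks of genes of similar length the share with a signal was 88.8%. Read on the opposite strand, the same window held a signal in 12 of the 18 peaks (66.7%), and in 66.2% of those of genes of similar length.

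The sequences below show the signals at the ends of the chromatin genes, with the hexamer in capitals, read 5′ to 3′ on each gene's own strand of the GRCh38 reference. They are shown because the ARID1A and ARID1B ends share more than the hexamer.
ARID1A, last annotated end (chr1:26782079-26782108, plus strand): AATAAAtgtacattaaatcttggtaagact
ARID1B, stronger end (chr6:157209234-157209263, plus strand): AATAAAtgtacattaaatcttgttaagcac
ARID1A, earlier end (chr1:26781094-26781123, plus strand): AATAAAaatggctttcccagtccttgcatc
ARID1B, last annotated end (chr6:157210728-157210757, plus strand): AATAAAggtgcaaagaaagtttagtatttt
ATRX, TES peak (chrX:77505523-77505552, minus strand): ACTAAAttctgtaaagggagatctctcatc
ATRX, peak beyond the last end (chrX:77503928-77503957, minus strand): AATAAAaacctgttattttactttccccct
CHD5, own end (chr1:6101783-6101812, minus strand): AATAAAtcctttgggaaaggatttaatcag

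Over the 30 bases that start at the hexamer, the last end of ARID1A and the stronger end of ARID1B were identical at 26 positions. The other ARID1A and ARID1B pairings were identical at 11 to 16 of 30. Both matching sites carried a strong peak. In ARID1A the peak at chr1:26781947-26782110 ended 6 bp past the annotated end of ARID1A-201, with a pileup of 31 and a fold of 11.1. This ARID1A peak was A-rich on both strands. In ARID1B the peak at chr6:157208747-157209265 ended 6 bp past that of ARID1B-223, with a pileup of 36 and a fold of 11.5. How reads that map to several places were treated at these sites was not tested.

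ARID1A (chr1:26693236-26782104, plus strand, 88.9 kb, ENSG00000117713) had 3 TES peaks, all in the last exon. The strongest of the ends in the 8 genes lay here, at chr1:26781030-26781175, with a pileup of 40 and a fold of 14.3. It ended 2 bp before the end of ARID1A-204. Its AATAAA lay 82 bp before the peak end, and A-rich sequence followed the peak. A weaker TES peak, with a pileup of 14, ended 277 bp past the same annotated end, held no signal and was likewise followed by A-rich sequence. ARID1B (chr6:156776020-157210779, plus strand, 435 kb, ENSG00000049618) had, besides the end above, a TES peak at its last annotated end with a pileup of 23. The early annotated end of ARID1B-222, at chr6:157141277, had no peak. The strongest TES pileups of ARID1A and ARID1B stood at percentiles 89.5 and 93.8 among the 200 protein-coding genes nearest in length.

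ATRX (chrX:77504880-77786216, minus strand, 281 kb, ENSG00000085224) had 1 TES peak, with a pileup of 36 and a fold of 14.3, at percentile 90.3 of its length neighbours. It ended 210 bp past the annotated end of ATRX-202 and ATRX-224. The farthest annotated end, that of ATRX-201, had no peak in its window. A further peak lay 941 bp beyond that end, at chrX:77503939-77504117, with a pileup of 17, a fold of 6.92 and an AATAAA 19 bp before its end, and no A-rich sequence followed it on either strand. The other downstream peak of the 8 genes lay 3650 bp past the last end of ARID1A, with a pileup of 14, and was A-rich.

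CHD5 (chr1:6101787-6180321, minus strand, 78.5 kb, ENSG00000116254) had a weak end. The peak at its own annotated end had a pileup of 8 and a fold of 6.47, with AATAAA 21 bp before the peak end. A pileup of 8 stood at percentile 6.75 among the strongest TES pileups of its length neighbours. A stronger peak, with a pileup of 19 and a fold of 14.4, fell into the TES window of CHD5 but lay 710 bp past its end and coincided, at 0 bp, with the annotated end of KCNAB2, a potassium channel subunit gene on the opposite strand. Peaks carry no strand, so reads of CHD5 and KCNAB2 cannot be told apart there.

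NF1 (chr17:31094927-31377687, plus strand, 283 kb, ENSG00000196712) had 1 TES peak, with a pileup of 22 and a fold of 8.55, that ended 1 bp from the annotated end of NF1-202. It was preceded 29 bp upstream by the variant signal AGTAAA. The last exon held 4 more peaks before it. The peak at chr17:31375634-31375837 had a pileup of 22, the same as the end itself, an AATAAA 33 bp before its end and A-rich sequence after it. The peak at chr17:31376225-31376329 had a pileup of 15 and an AATAAA 28 bp before its end, with no A-rich sequence after it. The early annotated ends of NF1-214, NF1-211 and NF1-204, between 88.5 and 128 kb from the gene start, had no peak.

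CADM1 (chr11:115169236-115504523, minus strand, 335 kb, ENSG00000182985) had 2 TES peaks in its last exon. The peak at chr11:115173632-115173798 ended 7 bp before the end of CADM1-212, with a pileup of 30, a fold of 12.4 and an AATAAA 22 bp before its end. The peak at chr11:115174045-115174165 had a pileup of 20 and an AATAAA 21 bp before its end. The annotated ends that lie farthest along the gene, those of CADM1-221, CADM1-201 and CADM1-203, had no peak, so the detected 3′ UTRs were shorter than the longest annotated ones.

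KIF1B (chr1:10210570-10381603, plus strand, 171 kb, ENSG00000054523) had the most TES peaks of the 8 genes, 5, and 3 of them belonged to short isoforms that end far inside the gene. The end of KIF1B-216, 52.7 kb from the gene start, carried a peak with a pileup of 17 and a fold of 10.6. The end of KIF1B-205, 98.0 kb from the start, carried a pileup of 29 and a fold of 11.2, the highest of the gene, and was followed by A-rich sequence. The end of KIF1B-203, 96.2 kb from the start, carried a pileup of 24 but held no signal, was A-rich downstream and overlapped RN7SL731P, a copy of the signal recognition particle RNA. The full-length ends carried pileups of 8 and 20. The internal ends thus all stood above the weaker of the full-length ends, and those of KIF1B-203 and KIF1B-205 also above the stronger one.

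CASZ1 (chr1:10636604-10796650, minus strand, 160 kb, ENSG00000130940) had a peak at each of its annotated ends. The end of the short isoform CASZ1-201 carried a pileup of 29 and a fold of 18.3, the highest fold among the ends of the 8 genes. The end of the long isoform CASZ1-202, which has more zinc fingers, carried a pileup of 23 and a fold of 11.8. The short end lies within an intron of the long isoform and overlaps a lncRNA, ENSG00000272078, on the opposite strand, so its reads could belong to either. The signals at internal and last ends of KIF1B and CASZ1 are shown here because these are the annotated early ends at which peaks were found, with the last ends for comparison.
KIF1B-216 (chr1:10263296-10263325, plus strand): AATAAAaagaagaagctgctgtttctttct
KIF1B-205 (chr1:10308573-10308602, plus strand): AATAAAagttgaagtcatcttttaagagtg
KIF1B, last annotated end (chr1:10381577-10381606, plus strand): AATAAAggtacagccagtgcatcagaaggt
CASZ1-201 (chr1:10647201-10647230, minus strand): AATAAAttggattatttatatcgcctgagt
CASZ1-202 (chr1:10636593-10636622, minus strand): AATAAAaactggaaaaaaatctatcaagtt

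**Figure D1:**
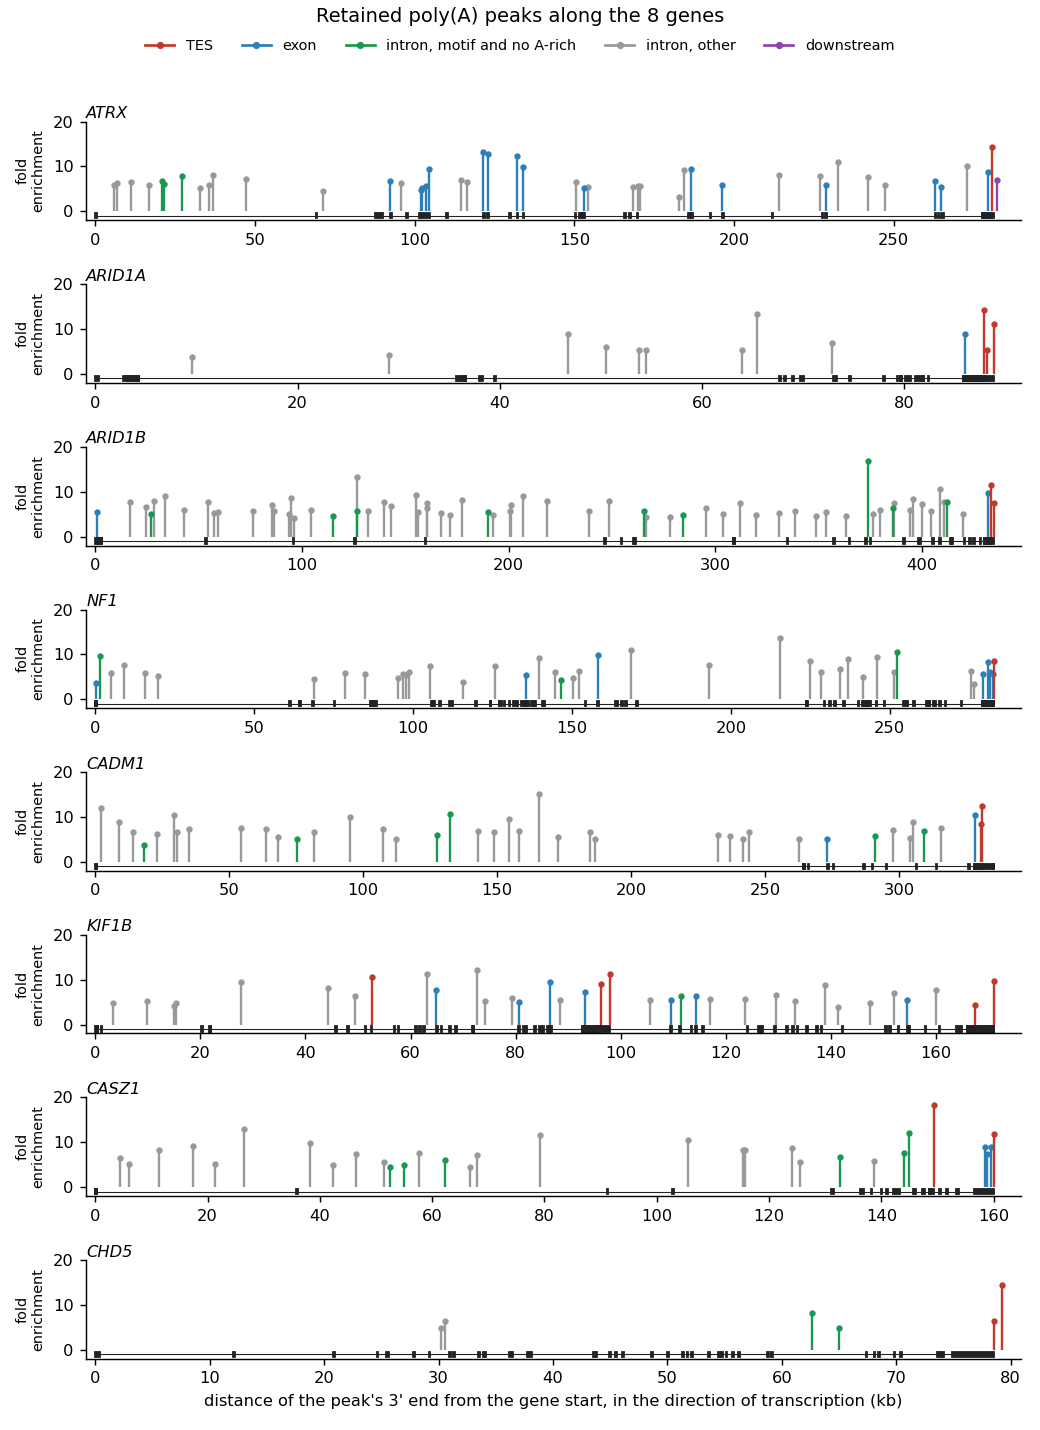
Retained poly(A) peaks along the 8 genes, with the distance of the peak's 3′ end from the gene start in kb on the x axis and fold enrichment on the y axis, and black boxes for exons. TES peaks gather at the right of each gene apart from those inside KIF1B and CASZ1, intronic peaks spread over the whole length of the genes, and the highest intronic peak is that of ARID1B at a fold of 16.8.

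Intronic peaks were counted next, each gene against the 200 genes with TES peaks that were nearest to it in length, since longer genes hold more intronic peaks. All 8 genes held intronic peaks, as did 76.0% of all genes compared, and the 223 that were retained came to between 4 and 63 per gene. The count lay above the median of the length neighbours in 6 of 8 genes, a property of 39.0% of all 12209 genes compared in the same way. It lay above the upper quartile in 2 genes, ARID1B and CASZ1, against 18.8% of all genes, and below the lower quartile in 0, against 14.3%. The median percentile of the 8 genes was 71.9, and that of all genes was 45.5. The values for all genes cover genes of any length. Many short genes hold no intronic peak, and a count tied with the median is not above it. They are therefore no base rate for genes as long as these 8. The genes were picked with earlier results of these data known, and no test was run.

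ARID1B held 63 intronic peaks, where its neighbours had a median of 36 and quartiles of 18 and 50 (percentile 91.0). CASZ1 held 26, where its neighbours had a median of 17 and quartiles of 9 and 22 (percentile 92.8). These genes stood highest of the 8 for their length. Over the settings tried, ARID1B ranged between percentiles 69.8 and 94.8 and CASZ1 between 87.8 and 97.8.

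KIF1B held 23 intronic peaks against a neighbour median of 18 (percentile 75.5), NF1 held 33 against 26.5 (percentile 72.0) and CADM1 held 37 against 28 (percentile 71.8). These counts lay above the middle of their neighbours and within, or at, the upper quartile. ATRX held 28 against 26 (percentile 55.8), and ARID1A held 9 against 9 (percentile 53.0), so both counts were those of an ordinary gene of their length. CHD5 held 4 against 8 (percentile 21.8), the lowest of the 8. Per 100 kb of intron the range was from 5.82 peaks in CHD5 to 17.1 in CASZ1, and the paralogs ARID1A and ARID1B had 11.1 and 14.9.

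**Figure D2:**
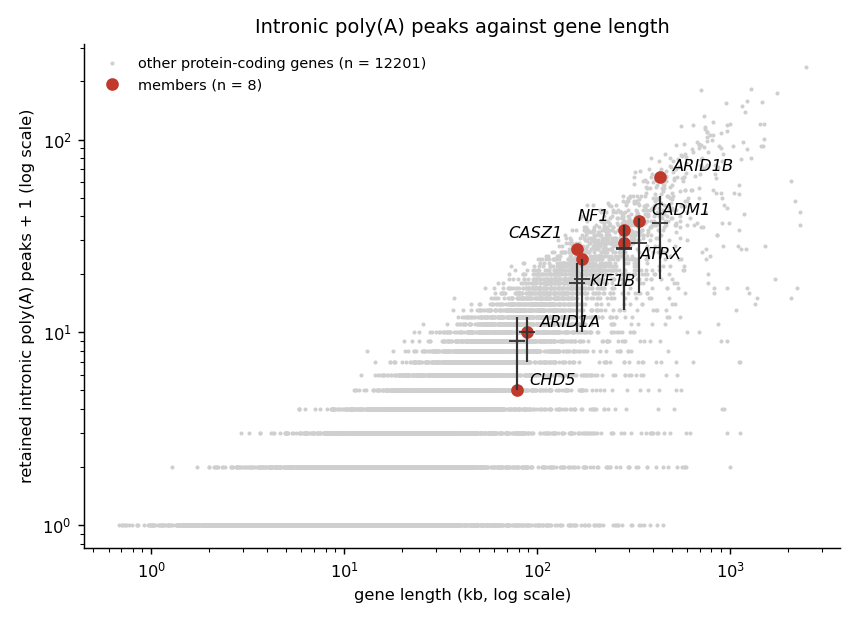
Retained intronic peaks plus 1 against gene length in kb, both on log scales, for 12201 other protein-coding genes (grey) and the 8 genes (red); each black bar runs from the lower to the upper quartile of a gene's 200 length neighbours and its cross line is their median. ARID1B (63 peaks) and CASZ1 (26 peaks) lie above their bars, and CHD5 (4 peaks) lies at the foot of its own.

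Gene length apart, the 8 genes differed widely in base composition. CASZ1 and CHD5 were 56.7% and 56.8% G and C over their span, at percentiles 99 and 99.5 of their length neighbours, and ATRX and NF1 were 37.7% and 37.5%, at percentiles 28.5 and 25. The ratio of U1 snRNA binding motifs (the U1 motif GGTGAG, its variant GGTAAG and the shifted form GTGAGT, counted on the gene's strand) to AATAAA hexamers was likewise highest in CHD5 and CASZ1 and lowest in NF1 and ATRX. On the log2 scale it was 2.0 in CHD5 and 1.35 in CASZ1, against neighbour medians of -0.51 and -0.49 (percentiles 98.5 and 96.5). It was -0.96 in NF1 and -0.73 in ATRX, against neighbour medians of -0.65 and -0.64 (percentiles 26.5 and 42.5). U1 snRNP, which binds such motifs at 5′ splice sites, is known to protect nascent transcripts from cleavage at intronic signals. CASZ1 and CHD5, the genes with the highest ratios, had the highest and the lowest percentile of intronic peaks among the 8.

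The sequence around the intronic peaks differed from that at the ends. A signal lay in the 100 bp before 118 of the 223 peaks (52.9%, 95% Wilson interval 46.4% to 59.4%), and in the same window read on the other strand of 37.7%. The earlier removal had taken out 22 intronic peaks without a signal, judged on the gene's strand only. That raises the share on the gene's strand, here and in the narrower measure below, so the strands are not compared on equal terms. A peak was given the first hexamer found in a fixed order that starts with AATAAA. In that order, 49 peaks had AATAAA, 15 had ATTAAA, 8 had AGTAAA, 6 had TATAAA, 4 had AATATA and 5 had AATACA. Another 7 had CATAAA, 2 had GATAAA, 8 had AATGAA, 2 had ACTAAA, 9 had AAGAAA and 3 had AATAGA. A-rich sequence was taken as a run of 6 A, or 7 A among 10 bases, in the 50 bp past the peak. Such sequence, to which the oligo(dT) primer of the library kit can anneal inside a transcript, followed 187 of them (83.9%, 78.5% to 88.1%) and 22.4% on the opposite strand. In 149 peaks it lay on the gene's strand only and in 12 on the opposite strand only. At the ends, A-rich sequence followed 6 of the 18 TES peaks (33.3%), and 25.1% of the TES peaks of the length neighbours. Over the intronic peaks of the length neighbours, 55.0% had a signal and 82.8% had A-rich sequence. The intronic peaks of the 8 genes therefore looked like those of other long genes in both respects.

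A narrower measure looked at the place where a working signal usually lies. AATAAA started 15 to 35 bp before the 3′ end of 29 of 223 intronic peaks (13.0%), and of 1.35% when the other strand was read. It did so in 9 of the 18 TES peaks (50%) and in 27.8% of them on the other strand, a difference that only 18 peaks leave imprecise. Over the 2161 TES peaks of the length neighbours the shares were 47.8% and 4.91%. Over the intronic peaks of the length neighbours the shares were 10.9% and 2.41%. A match is a description of the letters in the window and not evidence that cleavage took place there.

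Intronic peaks with a signal before them and no A-rich sequence after them on the gene's strand numbered 30 (13.5%, 9.59% to 18.6%). The share was 13.3% over the length neighbours and 16.3% over all genes, so the 8 genes stood at the level of other genes of their length. The same windows read on the opposite strand gave a higher share, 54 of the 223 peaks (24.2%), and 24.7% over the length neighbours. On the gene's strand, at least 1 such peak was present in 7 of the 8 genes, compared with 80.3% of the length neighbours and 45.9% of all genes. The number exceeded the neighbours' median in 6 genes, ATRX, ARID1B, NF1, CADM1, CASZ1 and CHD5, against 29.8% of all genes. Most genes in that comparison, which covers any length, hold no such peak, and ties do not count as exceeding. The 29.8% is therefore no base rate for genes of this length.

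Of the 30 peaks, 18 had AATAAA and 5 had ATTAAA, and in 24 the signal started 15 to 35 bp before the peak end. Their pileups ranged from 4 to 29 with a median of 7.5, and 11 reached 10 or more. In 10 of the 30, A-rich sequence followed on the opposite strand, where without strand a read from an antisense transcript would look the same. A further 4 overlapped another gene, 2 in CADM1 and 2 in CASZ1.

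**Figure D3:**
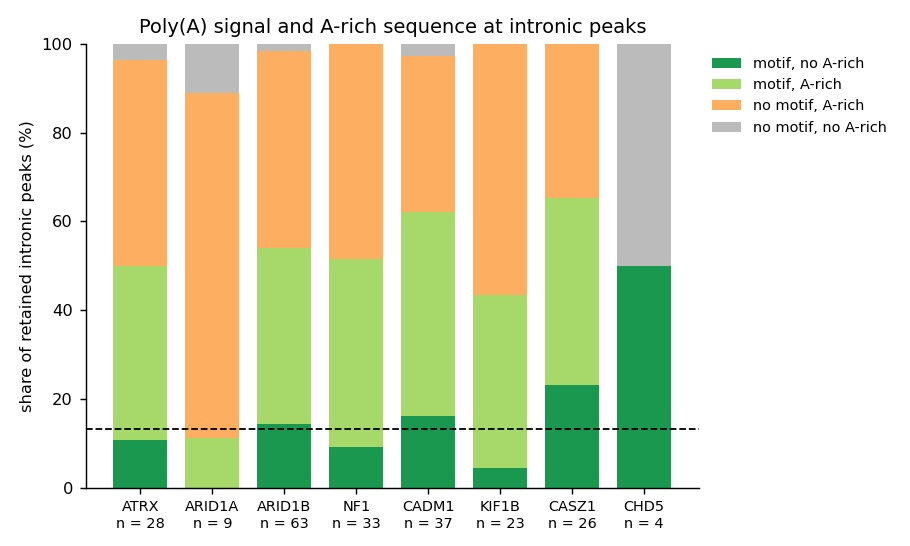
Share of retained intronic peaks, in %, with and without a poly(A) signal in the 100 bp before the peak end and A-rich sequence in the 50 bp after it, for each gene with its number of intronic peaks; the dashed line marks the 13.3% with a signal and no A-rich sequence among length neighbours. A-rich peaks make up 76.9% to 95.7% in every gene but CHD5, where none of 4 was A-rich.

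ARID1B held 9 of the 30, the most of any of the 8 genes and at percentile 94.8 of its length neighbours, whose median was 3. In 8 of the 9 the signal was AATAAA, and in 6 A-rich sequence followed on the opposite strand. The peak at chr6:157149848-157149970, in intron 10 and 374 kb from the gene start, had the highest fold of all intronic peaks in the 8 genes, 16.8, with a pileup of 29 over a background of 0.790 and a −log10 q of 31.7. An AATAAA lay 22 bp before its end. Its pileup was between those of the ARID1B ends, 36 and 23, and it was the only intronic peak of the 8 genes with a pileup above the 23 reads that are the median of their ends. A-rich sequence lay on the opposite strand of this peak and not on the strand of ARID1B. The next in fold among the 9 had 7.59, with a pileup of 11. Intron 6, the longest of ARID1B at 149 kb, held 19 of the 63 peaks (30.2%) in 35.2% of the intron length. The first intron is only 0.735 kb long and held 0. The 3 ARID1B intronic peaks that overlapped another gene were all A-rich, 2 with pileups of 8 and 10 at the processed pseudogene ENSG00000218596 and 1 with a pileup of 6 at the lncRNA ENSG00000233044.

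CASZ1 held 6 such peaks (23.1%, 11% to 42.1%), at percentile 92.0 of its neighbours. The strongest, at chr1:10651784-10651904 in intron 11, had a fold of 12.1, a pileup of 20 and an AATAAA 45 bp before its end. It and a second peak in the same intron, at chr1:10652602-10652707 with a pileup of 10, overlapped the lncRNA ENSG00000272078 on the opposite strand. With these set aside, 4 remained, with pileups of 5 to 7, and 3 of them lay in intron 2. That intron held 11 of the 26 peaks (42.3%) in 36.3% of the intron length. The strongest intronic peak of CASZ1 by fold, 12.9 with a pileup of 15, was A-rich.

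CADM1 also held 6 (16.2%, 7.65% to 31.1%), at percentile 89.8. Its strongest, with a fold of 10.7 and a pileup of 15, had a TATAAA 74 bp before the end and overlapped a lncRNA, ENSG00000255580, on the opposite strand, as did a second one with a pileup of 7. The first intron of CADM1 is 264 kb long, 80.8% of its intron sequence, and held 31 of the 37 peaks (83.8%) and 4 of the 6. The strongest intronic peak of CADM1, at chr11:115338888-115339009, had a fold of 15.1 and a pileup of 22, and 10 A in a row began right after it. It overlapped ENSG00000256972, a lncRNA on the opposite strand. A peak with a pileup of 8 overlapped CADM1-AS1, also on the opposite strand, and was A-rich on both strands.

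NF1 held 3 (9.09%, 3.14% to 23.6%), at percentile 59.8. The strongest lay at chr17:31347123-31347232 in intron 47, with a fold of 10.6, a pileup of 16 and an AATAAA 27 bp before its end, and was A-rich on neither strand. Another lay 1.53 kb from the gene start, at chr17:31096344-31096460 in intron 1, with a fold of 9.63, a pileup of 17 and an AATAAA 15 bp before its end, with A-rich sequence on the opposite strand. Only 4 of the 223 intronic peaks, 1 each in NF1, CADM1, KIF1B and CASZ1, lay within 5 kb of a gene start. The highest intronic peak of NF1, at chr17:31310108-31310330 with a pileup of 22 and a fold of 13.7, overlapped EVI2B, a leukocyte gene that lies in intron 35 on the opposite strand, and was A-rich on both strands. A peak with a pileup of 13 overlapped its neighbour EVI2A. Without strand, the peaks at EVI2B and EVI2A cannot be assigned to NF1 or to the nested genes.

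ATRX held 3 (10.7%, 3.71% to 27.2%), at percentile 59.5, all within intron 1 and between 20.9 and 27.2 kb from the gene start. The strongest, at chrX:77759013-77759117, had a fold of 7.89, a pileup of 11 and an AATAAA 20 bp before its end, and was A-rich on neither strand. The strongest intronic peak of ATRX by fold, at chrX:77553610-77553771 in intron 30, had a fold of 10.9 and a pileup of 14 and was A-rich on both strands. Intron 1 held 11 of the 28 peaks of ATRX (39.3%) in 25.4% of its intron length. CHD5 held 2 among its 4 intronic peaks, both in intron 33, with pileups of 9 and 5 and the signals CATAAA and ATTAAA. KIF1B held 1 (4.35%, 0.772% to 21%), with a pileup of 8, at percentile 27.5, although its total count of intronic peaks stood at 75.5. Its highest intronic peak by fold, at chr1:10283107-10283217 with a fold of 12.2 and a pileup of 19, had no signal and was followed by 14 A in a row. The 1 KIF1B intronic peak that overlapped another gene, the snRNA gene RNU6-37P, had a pileup of 11 and was A-rich. ARID1A held 0 of 9, and an interval of 0% to 29.9% shows how little 9 peaks can tell. Its highest intronic peak, with a fold of 13.2 and a pileup of 19 in intron 4, had no signal before it.

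The first lines below give the signal at the strongest peak of this kind in each of the 7 genes, with the hexamer in capitals. The last pair gives the 30 bases that follow the strongest intronic peaks of CADM1 and KIF1B, with the run of A in capitals, to show the kind of sequence at which the primer can anneal within a transcript.
ARID1B intron 10 (chr6:157149949-157149978, plus strand): AATAAAatgaaaatcaatcattatctttct
CASZ1 intron 11 (chr1:10651799-10651828, minus strand): AATAAAatgccacttgctgtttctgaagca
NF1 intron 47 (chr17:31347206-31347235, plus strand): AATAAAatgtattttgaaagtgctgctaac
ATRX intron 1 (chrX:77759003-77759032, minus strand): AATAAAtttaaaatttaacagccatgttat
CADM1 intron 1 (chr11:115372365-115372394, minus strand): TATAAAgcacactcttaaaaagaaagaatt
KIF1B intron 24 (chr1:10322048-10322077, plus strand): AATAAAatttttaaaacatgttttctagct
CHD5 intron 33 (chr1:6117674-6117703, minus strand): CATAAAgatgttgaatattttttcatgtga
CADM1 intron 1, after the peak (chr11:115338858-115338887, minus strand): AAAAAAAAAAtaaaaaaaataaaagaaggt
KIF1B intron 15, after the peak (chr1:10283218-10283247, plus strand): AAAAAAAAAAAAAAgataaagttagaacat

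Taking the genes as a group, 59 of the 223 intronic peaks (26.5%, 21.1% to 32.6%) lay in the first intron, which makes up 28.4% of their intron length. The share was 24.9% in the length neighbours and 26.8% over all genes. The first intron's share of peaks exceeded its share of length in ATRX, KIF1B and CADM1, and fell short of it in ARID1A, NF1 and CHD5. It differed little in CASZ1, at 23.1% of peaks in 23.5% of length, and ARID1B had none in a first intron of 0.173% of its length. In ARID1A it was 22.2% of peaks in 44.3% of intron length, and 6 of its 9 peaks lay in intron 4.

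Intronic peaks were weaker than the ends. Their median pileup was 8, as in the length neighbours, against 23 at the ends and 14.5 in exons. Local background differed as well, with a median of 0.450 for intronic peaks and 1.54 for TES peaks, and the median folds were 6.25 and 10.8. Of the 223 peaks, 165 reached a −log10 q of 5 and 44 reached 10. In ARID1A, the share of peaks that passed the lower of these thresholds was the smallest of the 7 genes with more than 4 intronic peaks, at 4 of 9.

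**Figure D4:**
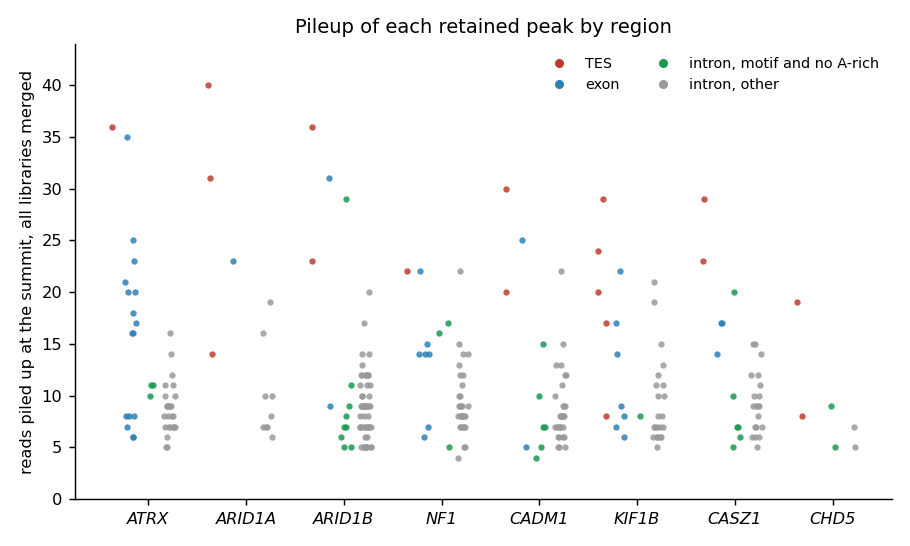
Reads piled up at the summit of each retained TES, exonic or intronic peak of the 8 genes, all libraries merged, with 1 point per peak (the 2 downstream peaks are not shown). TES peaks reach pileups of 40, most intronic peaks lie near their median of 8, and the ARID1B intronic peak at 29 and the ATRX exonic peak at 35 stand above the others of their class.

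Exons held the most distinctive pattern, in ATRX. It held 16 exonic peaks, above all 200 of its length neighbours, whose median was 2 and upper quartile 4. The count lay above the upper quartile in 3 of the 8 genes, ATRX, NF1 with 7 (percentile 94.5) and KIF1B with 7 (percentile 92.0), against 18.2% of all genes. The 18.2% covers genes of any length and is no base rate for genes as long as these. Neighbours were matched on the span of the gene and not on the length of its exons. Exon 9 of ATRX, which is 3074 bp long, held 4 of the 16 peaks, with pileups of 35, 20, 18 and 16, and the first of these nearly equalled the ATRX end at 36. Of the 16, 15 overlapped coding sequence and 13 of those 15 were followed by A-rich sequence. The remaining pair, in exons 14 and 15, had folds of 12.3 and 9.83, pileups of 20 and 16, and the variant signals TATAAA and GATAAA, with A-rich sequence on the opposite strand of both. For comparison, A-rich sequence followed 65.8% of the 38 exonic peaks of the 8 genes, coding or not. The share was 59.0% over the exonic peaks of the length neighbours and 53.4% over those of all genes.

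Exonic peaks in the other genes were fewer. All 7 of KIF1B overlapped coding sequence, and 6 of them were A-rich. An overlap of any length with an exon made a peak exonic. With each peak placed by its summit, KIF1B had 28 intronic peaks (percentile 89.0) in place of 23. Some of its peaks counted as exonic or TES therefore had their summit in an intron. NF1 had 4 in the 3′ UTR described above, 2 in coding exons, both A-rich, and 1 at the first exon. CASZ1 had 3, all in the 3′ UTR of the long isoform, with pileups of 14, 17 and 17, and 2 of them were A-rich. ARID1B had 1 near its start and 1 in its last exon with a pileup of 31, an ATTAAA 28 bp before its end and no A-rich sequence. CADM1 had 2 and ARID1A had 1, none of them with a signal or A-rich sequence, and CHD5 had 0.

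The families to which these genes belong were counted in the same way, each member against its own length neighbours. Of 24 SWI/SNF subunit genes with a TES peak, 13 had more intronic peaks than their neighbours' median and 7 had fewer, with a median percentile of 69.5. ARID1B stood at 91.0, ARID1A at 53.0, and the family ran from BCL7B at 7.0 to DPF1 at 98.3. Of 8 CHD remodelers, 4 lay above and 2 below. CHD5 was 1 of those 2, beside CHD4, which had 0 intronic peaks and stood at 4.25, while CHD9 stood highest at 86.8. Of 12 inhibitors of RAS signalling, 9 lay above and 2 below, with NF1 at 72.0 near the family's median of 72.8, SPRED1 highest at 93.5 and DAB2IP lowest at 26.5.

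Among 5 kinesin-3 motor genes with a TES peak, KIF1B stood highest at 75.5 and KIF16B lowest at 15.8. CADM1, at 71.8, lay between CADM4 at 83.8 and CADM3 at 4.25. Of 9 genes of the distal short arm of chromosome 1, 6 lay above and 3 below, with a median percentile of 84.0, CASZ1 the highest and CHD5 the lowest. The share of all genes, of any length, above their neighbours' median was 39.0%, and nothing was tested for any family.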

How the data were processed

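Poly(A) 3′-sequencing libraries of Kelly and Kelly E9R cells came from an oligo(dT)-primed kit that reads from the cleavage site into the transcript (4 groups of 2 biological duplicates). According to the study's methods, the authors used BBDuk for trimming and STAR for mapping to GRCh38 with ERCC spike-ins, then merged all samples for a single MACS2 call with reads extended to 100 bp. The submitters' processing notes give STAR 2.5.1b and MACS2 2.1.1. The deposited columns are a score (a whole number made from the q-value), a fold enrichment (a ratio of summit pileup plus 1 to local background plus 1), a −log10 p and a −log10 q. There are 0 columns per sample and 0 peaks with a strand, and coverage tracks were not used here. No test was run, and shares carry 95% Wilson intervals, which cover counting error only (the reads carry no molecular identifiers).

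Whole pileups were solved from the fold and p-value by MACS2's formulas (found for 100% of peaks within 0.01 of −log10 p). Peaks were annotated with GENCODE release 44 basic transcripts on GRCh38 as TES (200 bp before to 600 bp after a transcript end), then exon, then intron. A peak's 3′ end was taken on the gene's strand. The study's 12 hexamers, AATAAA and the 11 single-base variants named with the results, were looked for in the 100 bp before that end, and likewise on the opposite strand. Peaks were removed if they had no hexamer and if the 50 bp past the 3′ end held 25 A with up to 3 mismatches. Introns are numbered in the transcript with the longest span, and a coding peak overlaps coding sequence of any basic transcript. The log2 U1 ratio adds 1 to both counts. Percentiles refer to the 200 nearest in length among 12209 genes with an intron and a TES peak.

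The 8 genes, the gene families and the markers were chosen with earlier results of these data known, and 1 listed marker is not reported here. Peaks named singly are every TES peak, the strongest intronic peak of each gene, the strongest with a hexamer and no A-rich sequence, and those overlapping another gene. All other peaks named were chosen after their values were seen. Python 3.11.15, pandas 2.3.3, numpy 2.4.6, scipy 1.17.1 and pysam 0.24.0 were used, and the steps were tested on simulated data. Alternatives covered the removal rule, the q threshold, class by summit, overlap with other genes, the choice of neighbours, the hexamers, the A-rich definition and the TES window.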

Additional observations from a re-analysis of the deposited data

How the results depend on the processing

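The share of intronic peaks with a signal and no A-rich sequence was 48.9% instead of 13.5% when A-rich meant 25 A with up to 3 mismatches, since fewer peaks then fail, and was 10.3% to 13.6% at the other settings. The number of genes above their neighbours' median was 6, and 4 to 7 under the alternatives, lowest with 20 bins of gene length and 5 with neighbours matched on length and TES pileup. All 8 genes kept a TES peak except where only the end of the longest transcript counted, which left 6, without ATRX and CADM1. First introns held 25% to 26.5% of intronic peaks. Of 96 recomputed percentiles, 10 fell on the other side of 50: 4 for ARID1A, 3 for ATRX and 1 each for NF1, KIF1B and CHD5. ARID1A ranged from 12.3 to 64.8 and ATRX from 38.3 to 80.8. Leaving out peaks that are A-rich on the opposite strand only, chosen after seeing the data, gave 7 genes above the median. No paired analysis was possible because the list was called on all libraries together, and for the same reason no replicate could be left out. The depth of the pool is unknown, and the lowest pileup in the whole list is 3 reads, close to the 4 of the weakest intronic peaks here.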
